A study of Mus musculus with 2 samples.

Results

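The gasdermins are a family of pore-forming proteins, and their genes were compared between sorted intestinal stem cells that lack circPan3, a circular RNA made from the Pan3 gene, and stem cells that carry it. A gene was taken as a member where the platform's annotation gave a row of the array that symbol alone, and the brightest row stood for it. This gave 9 genes of the 30792 that had a row with a single symbol, each with 1 row: the gasdermin C paralogs Gsdmc, Gsdmc2, Gsdmc3 and Gsdmc4, and the other gasdermins Gsdmd, Gsdma, Gsdma2, Gsdma3 and Gsdme. The array annotates Gsdme by its older symbol Dfna5. The family was chosen by the measured differences of Gsdmc2, Gsdmc3 and Gsdmc4 between these same arrays, so its differences are a description and not a test.

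The study's 2 samples were total RNA of circPan3-/-;Lgr5GFP-CreERT2 and of circPan3+/+;Lgr5GFP-CreERT2 mice, with 1 array each. In both, green fluorescent protein under the Lgr5 gene marked the stem cells, which were sorted from the small intestine of 8-week-old mice. The labels do not say how many mice went into a sample. The platform was the Clariom D mouse array of Affymetrix, with probe sets for coding and noncoding transcripts, and the deposited values are log2 signals after robust multiarray averaging (RMA). With 1 array per genotype there is no replicate error and no p-value, and every difference describes these 2 arrays.

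A gasdermin is made as an inactive protein. A protease cuts the linker between its amino-terminal pore-forming domain and its carboxy-terminal inhibitory domain, and the freed amino-terminal parts assemble into pores in the plasma membrane, through which small cytokines leave and which can end in the lytic cell death called pyroptosis. Mice carry several copies of the gasdermin A and gasdermin C genes, and in the mouse intestine the gasdermin C genes are known as epithelial genes induced by the type 2 cytokines IL-4 and IL-13.

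Both arrays have limits that touch the members. The 95th percentile of the 5222 negative control rows was 5.56 for circPan3-/- and 5.06 for circPan3+/+ cells, and is called the control limit below. Named genes whose mean over both arrays reached 2.53, the median row, numbered 14657, and their median difference, circPan3-/- minus circPan3+/+, was 0.36. A value that another row of the same array also held stood in 4.20% of the circPan3-/- rows and in 69.1% of the circPan3+/+ rows, and why the 2 columns differ in this was not tested. Lgr5 itself, the gene of the sorting marker, had 7.02 in circPan3-/- cells and 10.91 in circPan3+/+ cells, above the limit on both arrays. The circle has no probe set of its own in these values, so the deletion is not checked here.

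The promoter table used here held 3 of the 9 members, and the 250 bases before the start site of each are shown, since Gsdmc3 is the one gasdermin C paralog in that table and the other two are gasdermins within 2-fold. All are from RefSeq on GRCm38.p6, read 5′ to 3′ on the gene's own strand, and capitals mark the letters TATATAA. The stretches are chr15:63878559-63878808 on the minus strand for Gsdmc3, chr11:98626099-98626348 on the plus strand for Gsdma3 and chr6:50261770-50262019 on the minus strand for Gsdme.
Gsdmc3: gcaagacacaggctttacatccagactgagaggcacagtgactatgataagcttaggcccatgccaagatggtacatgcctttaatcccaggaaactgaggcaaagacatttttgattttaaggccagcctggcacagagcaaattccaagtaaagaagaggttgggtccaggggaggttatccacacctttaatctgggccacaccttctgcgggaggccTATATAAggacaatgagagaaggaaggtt
Gsdma3: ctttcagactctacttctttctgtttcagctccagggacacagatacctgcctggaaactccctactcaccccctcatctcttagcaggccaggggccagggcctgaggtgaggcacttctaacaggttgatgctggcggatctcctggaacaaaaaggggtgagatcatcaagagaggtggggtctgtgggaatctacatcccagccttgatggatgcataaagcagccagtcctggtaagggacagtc
Gsdme: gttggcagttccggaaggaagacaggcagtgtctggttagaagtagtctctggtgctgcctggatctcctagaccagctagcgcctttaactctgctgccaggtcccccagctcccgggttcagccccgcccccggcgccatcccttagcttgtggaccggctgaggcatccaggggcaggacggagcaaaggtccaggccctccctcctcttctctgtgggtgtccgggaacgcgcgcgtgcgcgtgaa

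Gsdmc3 carried TATATAA 29 bases before its start, and Gsdma3 and Gsdme did not carry it in these windows. Searched on both strands, these letters stood in 3.04% of all 32851 promoter windows of this length. The spaced palindrome TTCNNNNGAA, the form that STAT6 prefers, stood in 5.85% of the windows, and TTCNNNGAA, the form of other STAT factors, in 7.02%. None of the 3 gasdermin windows held either spacing, which says only that these letters are not in these bases. The Gsdmc3 window had a GC content of 47.6% with 1 CpG, the Gsdma3 window 53.6% with 1 CpG, and the Gsdme window 64.0% with 15 CpG, against medians of 52.4% and 6 CpG over all windows.

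Gsdmc2, Gsdmc3 and Gsdmc4 were far higher in stem cells without circPan3. Gsdmc3 had a log2 signal of 8.30 in circPan3-/- cells and 3.39 in circPan3+/+ cells, a difference of 4.91. Gsdmc2 had 8.43 in circPan3-/- cells and 3.87 in circPan3+/+ cells, a difference of 4.56. Gsdmc4, the brightest row of the family on the circPan3-/- array, had 9.17 there and 4.67 in circPan3+/+ cells, a difference of 4.49. As deposited, the spread between these differences was 0.42. In these rows every circPan3-/- value was above its control limit and every circPan3+/+ value below it.

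Since the circPan3+/+ values lay among the negative controls, the size of the difference is a bound. Measured as deposited from the circPan3+/+ limit, Gsdmc4 was at least 17.2-fold, Gsdmc2 at least 10.3-fold and Gsdmc3 at least 9.46-fold higher in circPan3-/- cells. The bounds here and below are not centred, so the median difference of 0.36 over named genes is still in them. Without it the bounds of higher genes would be smaller. Bounds of at least 8-fold in that direction were found for 10 of the 14657 named genes, or 0.0682%, a share given as background because these values chose the family. One of the other genes, the tissue kallikrein gene Klk1, was 10.6-fold higher with values above both limits, more than the bounds of Gsdmc2 and Gsdmc3. The bounds depended on the limit. With the 99th percentile of the negative controls, which was 8.14 for circPan3-/- and 8.07 for circPan3+/+ cells, they came to at least 2.15-fold for Gsdmc4, 1.29-fold for Gsdmc2 and 1.18-fold for Gsdmc3. The 3 circPan3-/- values exceeded 99.4%, 99.2% and 99.1% of the negative control rows in the same order, and the 3 circPan3+/+ values 93.1%, 87.3% and 81.5%.

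Seen against the other genes of each array, the rows changed place widely. Of 19739 named genes, Gsdmc4 ranked 230 by signal in circPan3-/- and 5282 in circPan3+/+ cells. Gsdmc2 ranked 383 and 8950, and Gsdmc3 417 and 11262, on the circPan3-/- and circPan3+/+ arrays. There were 15898 named genes under the circPan3+/+ limit, and 584 of them were above the circPan3-/- limit.

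Gsdmc, the first of the paralogs in gene order, was dim on both arrays, with 3.68 in circPan3-/- cells and 1.41 in circPan3+/+ cells. Its difference as deposited was 2.27, but both values lay under the control limits, so no fold is given. Its mean level of 2.55 was just above the filter of 2.53, which it passed through its circPan3-/- value. With bounds, 3 of the 4 paralogs were at least 2-fold higher, beside 3.68% of the named genes. As deposited, where the values of Gsdmc count although both are under the limits, the paralogs' count was 4, beside 9.66%, and it was 4 after centring on the median of named genes, beside 3.85%. The differences of Gsdmc2, Gsdmc3 and Gsdmc4 chose the family, so these counts are a description and the shares only background.

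**Figure D1:**
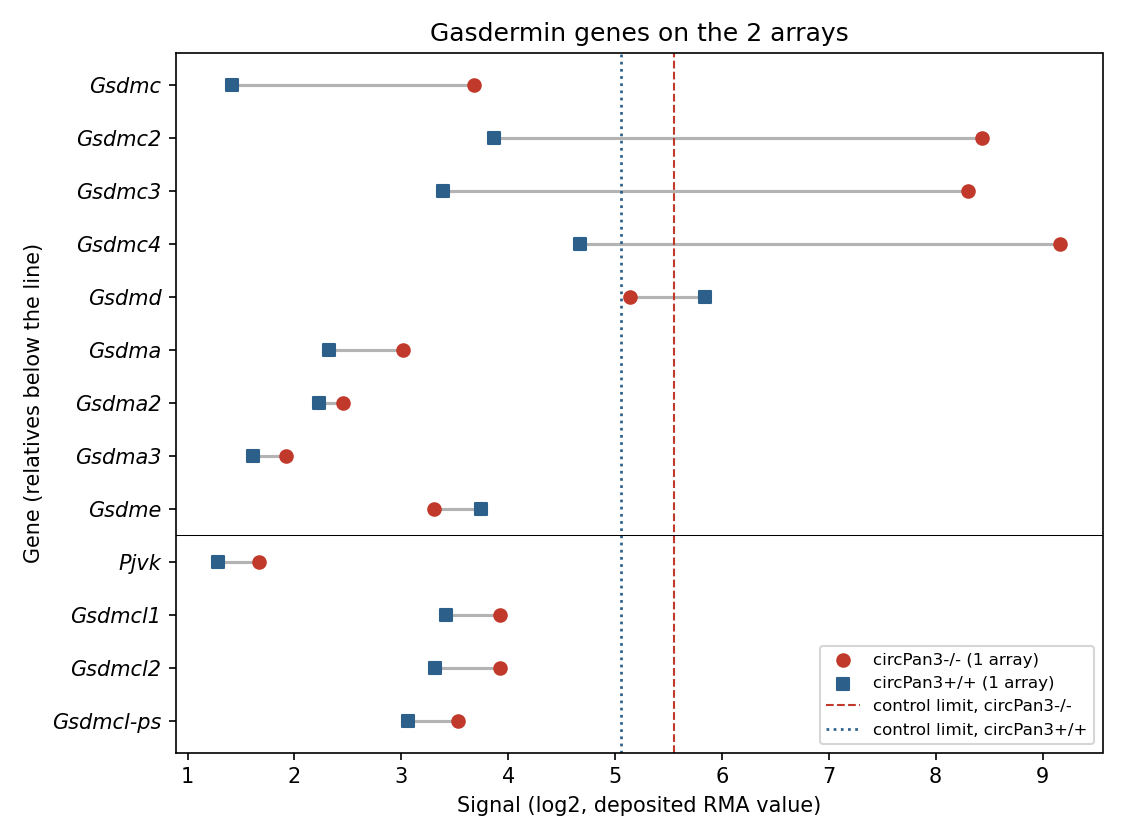
Log2 signal of each gasdermin gene, and of 4 relatives below the line, on the circPan3-/- array (circles) and the circPan3+/+ array (squares), 1 array each, with dashed and dotted lines at the control limits of 5.56 (circPan3-/-) and 5.06 (circPan3+/+). Gsdmc2, Gsdmc3 and Gsdmc4 lie above the limit on the circPan3-/- array and below it on the circPan3+/+ array, while the other rows stay within 1 unit between arrays except Gsdmc at 2.27.

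The 4 genes are close paralogs, and whether probes of one row also bind transcripts of another was not tested, so their values are not 4 independent readings. Part of the deposited precision is also limited. The circPan3-/- values of the 9 members each stood in 1 row of the table. The circPan3+/+ value of Gsdmc4 likewise stood in 1 row, but that of Gsdmc2 in 206 rows, that of Gsdmc3 in 209 and that of Gsdmc in 1773. The difference of Gsdmc4 therefore rests on values held by no other row on either array. Its circPan3+/+ value of 4.67 was still under the control limit, so its size remains a bound.

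None of the other gasdermins was 2-fold apart as deposited. Gsdmd encodes the gasdermin cut by inflammatory caspases, and was the member brightest in circPan3+/+ cells: 5.14 in circPan3-/- cells, under the limit, and 5.84 in circPan3+/+ cells, above it. The difference of -0.70 allows a bound of at least 1.22-fold lower. It passed 2-fold when the differences were centred on the median of named genes (-1.06), fitted by loess (-1.19) or taken after quantile normalization (-1.04). Its circPan3+/+ value stood in 8 rows.

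Gsdme, a gasdermin gene also known from hereditary hearing loss in humans, had 3.30 in circPan3-/- cells and 3.75 in circPan3+/+ cells, a difference of -0.44 between values under both limits. The gasdermin A genes are known from skin and hair follicle. Gsdma had 3.02 in circPan3-/- cells and 2.32 in circPan3+/+ cells, Gsdma2 had 2.45 and 2.23, and Gsdma3 had 1.92 and 1.61 in circPan3-/- and circPan3+/+ cells. Their differences of 0.70, 0.23 and 0.31 were between values under the limits, and those of Gsdma2 and Gsdma3 turned to -0.13 and -0.044 when the median of named genes was subtracted. Gsdma2 and Gsdma3 did not pass the filter on mean level, so 7 of the 9 members did.

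As deposited, the differences of the gasdermin C paralogs ran from 2.27 to 4.91 with a median of 4.53, and those of the other gasdermins from -0.70 to 0.70 with a median of 0.23, which puts the medians 4.30 apart. Gsdmc and all of the others but Gsdmd had no value above a control limit, so whether the ranges truly lie apart is not settled by these values. A shift common to all rows cancels in this comparison, and the gap between medians ran from 3.96 after loess to 5.27 when only members with a brighter value above the control limit were kept, which leaves Gsdmd alone on the other side. The choice of members had used these values, so the distance is a description.

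**Figure D2:**
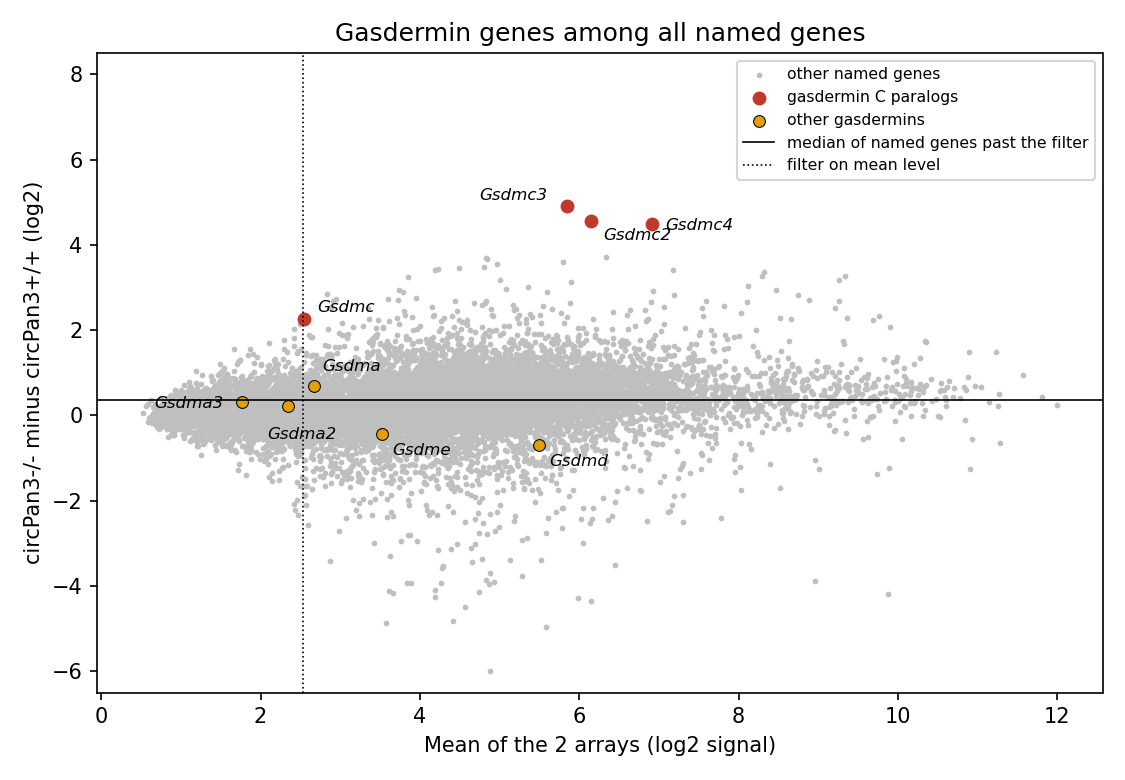
Difference between the arrays (circPan3-/- minus circPan3+/+, log2) against the mean of both arrays for the named genes (grey), the gasdermin C paralogs (red) and the other gasdermins (orange), with lines at the median difference of 0.36 and at the filter of 2.53. Gsdmc3, Gsdmc2 and Gsdmc4 are drawn at 4.49 to 4.91, with circPan3+/+ values under the control limit, and the other gasdermins lie within the grey cloud.

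In gene order the gasdermin C cluster on chromosome 15 runs Gsdmc, Gsdmc2, Gsdmcl1, Gsdmc3, Gsdmcl2, Gsdmc4 and Gsdmcl-ps, with the pseudogene 1700065I16Rik after Gsdmc. The Gsdmcl pseudogenes that alternate with the coding paralogs had differences near the median of named genes. Gsdmcl1 had 3.92 in circPan3-/- cells and 3.42 in circPan3+/+ cells, a difference of 0.50. Gsdmcl2 had 3.92 in circPan3-/- cells and 3.32 in circPan3+/+ cells, a difference of 0.61, and Gsdmcl-ps had 3.53 in circPan3-/- cells and 3.07 in circPan3+/+ cells, a difference of 0.47. All of these values were under the control limits, and 1700065I16Rik, with 4.39 in circPan3-/- cells and 3.97 in circPan3+/+ cells, differed by 0.42.

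Of the 6 nearest annotated neighbours of the cluster with a row on the same chromosome, 3 on each side, 3 did not pass the filter (Gm25702, 4930449C09Rik and Gm25628). Asap1, which encodes a GTPase-activating protein for Arf, had 4.17 in circPan3-/- cells, under the limit, and 5.26 in circPan3+/+ cells, a difference of -1.09. Cyrib, a regulator of Rac signalling, had 5.74 in circPan3-/- cells and 5.33 in circPan3+/+ cells, and Gm5473 had 8.83 in circPan3-/- and 8.04 in circPan3+/+ cells. The neighbours of Gsdmd, also on chromosome 15, ran from -0.019 for Gm9568 to 0.92 for Naprt, an enzyme gene of NAD synthesis. The 6 nearest genes of the gasdermin A cluster on chromosome 11 ran from -0.11 for the cytokine gene Csf3 to 1.47 for Srsf3-ps. Those of Gsdme on chromosome 6 ran from -1.10 for the neuropeptide gene Npy to 0.79 for Mpp6, a scaffold protein gene.

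**Figure D3:**
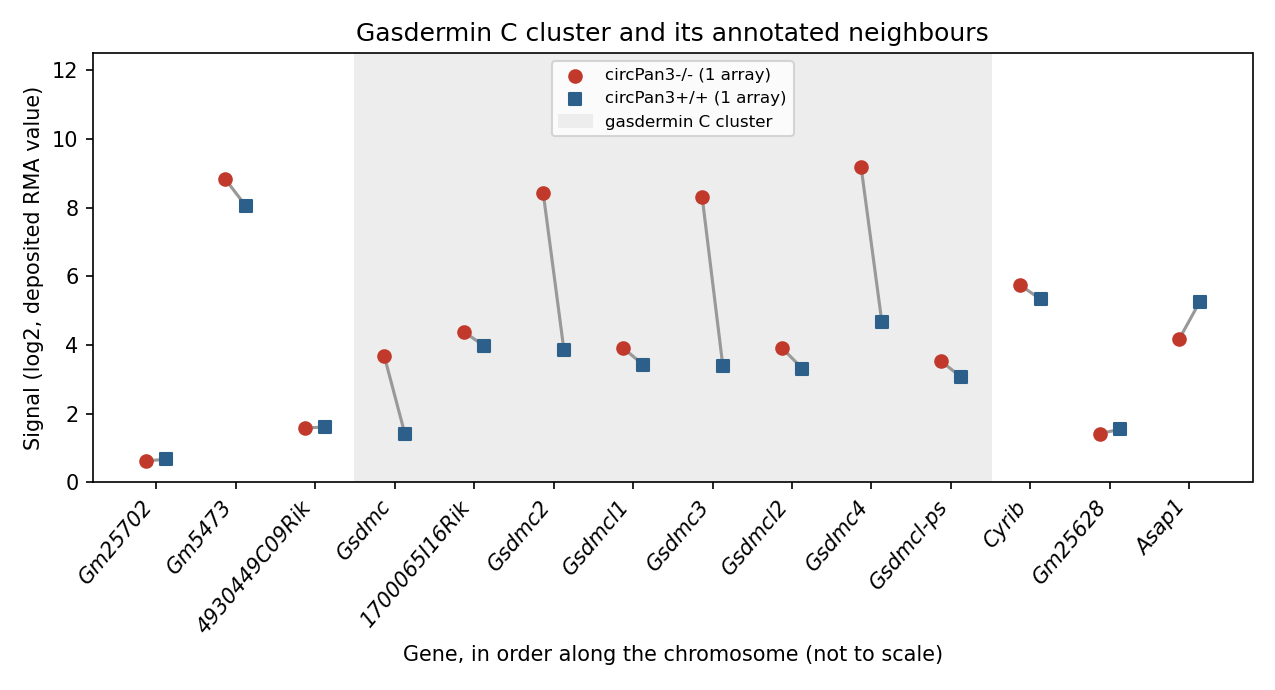
Log2 signal of the genes of the gasdermin C cluster (shaded) and of 3 annotated neighbours on each side, in gene order and not to scale, on the circPan3-/- array (circles, left in each pair) and the circPan3+/+ array (squares, right), 1 array each. The coding paralogs Gsdmc2, Gsdmc3 and Gsdmc4 stand between 8.30 and 9.17 on the circPan3-/- array, while the Gsdmcl pseudogenes beside them stay between 3.53 and 3.92 on that array.

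Pejvakin, the product of Pjvk and a distant member of the family known from hearing, had 1.67 in circPan3-/- cells and 1.29 in circPan3+/+ cells, both under the limits.

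The genes whose pair of levels lay nearest to the mean pair of Gsdmc2, Gsdmc3 and Gsdmc4 (8.63 in circPan3-/- and 3.98 in circPan3+/+ cells) were Pnliprp2, Klk1b5, Pla2g2a, Slc12a2 and Klk1, in this order. The measure was the Euclidean distance over the 2 arrays, from 0.67 for Pnliprp2 to 1.52 for Klk1, and levels of different rows do not compare amounts of RNA. Pnliprp2, a pancreatic lipase-related gene, had 8.20 in circPan3-/- cells and 4.48 in circPan3+/+ cells, under the limit there. Klk1b5, a kallikrein gene with near-identical copies, was at least 5.80-fold higher in circPan3-/- cells, with a circPan3+/+ value under the limit. Pla2g2a, a secreted phospholipase of Paneth cells, had 7.46 in circPan3-/- and 4.34 in circPan3+/+ cells, the latter under the limit. Slc12a2, the sodium, potassium and chloride cotransporter gene, had 8.39 in circPan3-/- cells and 5.47 in circPan3+/+ cells, and Klk1 had 8.88 in circPan3-/- and 5.48 in circPan3+/+ cells. Klk1, Pla2g2a and Slc12a2 also stand in the goblet, Paneth and Lgr5 stem cell marker lists described below, in this order.

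The proteases that can cut gasdermins were described next. Of 8 measured caspase genes, 7 passed the filter, with a median difference of 0.64 beside 0.36 over all named genes, and 2 were at least 2-fold higher (1 after centring) and 0 lower as deposited. The shares over named genes were 9.66% higher and 2.74% lower as deposited, and 3.85% and 4.96% after centring. With bounds 2 were higher and 0 lower, beside 3.68% and 0.532%. A count of 2 of 7 rests on very few genes. Casp1, the inflammasome caspase that cuts Gsdmd, had 8.45 in circPan3-/- cells and 6.91 in circPan3+/+ cells, which is 2.91-fold or 1.54 on the log2 scale. Casp6, an apoptotic caspase, had 7.10 in circPan3-/- cells and 6.04 in circPan3+/+ cells, a difference of 1.06. Casp8, whose protein is reported to cut human GSDMC, had 7.48 in circPan3-/- cells and 7.02 in circPan3+/+ cells, a difference of 0.47, and Casp4, which encodes the mouse sensor caspase for cytosolic lipopolysaccharide, differed by 0.48. The values of Casp1, Casp6, Casp8 and Casp4 were above the limits on both arrays.

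Of 5 measured granule proteases of lymphocytes and neutrophils that cut gasdermins, 4 passed the filter, with a median of -0.43. As deposited 1 was at least 2-fold lower, beside 2.74% of the named genes, and 0 higher. After centring 2 were lower, beside 4.96%, and with bounds 1, beside 0.532%. Ctsg, the measured member that did not pass the filter, differed by -1.15 between values under the limits. Gzma, whose product cuts human GSDMB, had 7.10 in circPan3-/- cells and 8.15 in circPan3+/+ cells, a difference of -1.05, above the limit on both arrays. Gzmb, whose product cuts gasdermin E, differed by -0.69, with its circPan3-/- value under the limit. Elane, neutrophil elastase, had 2.89 in circPan3-/- cells and 3.07 in circPan3+/+ cells, and Gzmc, another granzyme, 3.01 in circPan3-/- cells and 2.23 in circPan3+/+ cells, all under the limits.

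Inflammasome sensors and the adaptor had a median of 0.86 over the 12 members past the filter, of 15 measured. As deposited 5 were at least 2-fold higher and 1 lower, beside 9.66% and 2.74% of the named genes. After centring the counts were 4 higher and 2 lower, beside 3.85% and 4.96% of the named genes, and with bounds 4 higher and 0 lower, beside 3.68% and 0.532%. Nlrp6, a sensor known from intestinal epithelium, had 6.16 in circPan3-/- cells and 4.07 in circPan3+/+ cells, at least 2.15-fold and 2.09 on the log2 scale. Pycard, the adaptor that joins sensors to Casp1, had 6.78 in circPan3-/- cells and 4.93 in circPan3+/+ cells, at least 3.28-fold and 1.85 on the log2 scale. Naip6, of the family that recognises bacterial flagellin and secretion needles, had 7.86 in circPan3-/- cells and 6.25 in circPan3+/+ cells, a difference of 1.61. Mefv, the pyrin gene of myeloid cells, had 2.28 in circPan3-/- cells and 3.46 in circPan3+/+ cells, both under the limits. Nlrp9b, at 1.37, did not pass the filter.

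Of 5 measured cytokines and alarmins that leave through gasdermin pores, 2 were at least 2-fold lower as deposited, beside 2.74% of the named genes, and 0 higher, with a median of -0.58. With bounds 1 was lower, beside 0.532%. Il1a had 3.40 in circPan3-/- cells and 7.18 in circPan3+/+ cells, at least 3.08-fold lower and -3.78 on the log2 scale. Il33, an alarmin gene, had 3.09 in circPan3-/- cells and 4.14 in circPan3+/+ cells, both under the limits. Il1b had 6.35 and 6.47 in circPan3-/- and circPan3+/+ cells, above the limits. Il18, the epithelial inflammasome cytokine, had 3.75 and 4.34 in the same order, both under the limits.

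Genes of membrane repair, gasdermin palmitoylation and final membrane rupture had a median of 0.38 over 16 members, close to that of all named genes. Of these, 1 was at least 2-fold higher and 0 lower as deposited, beside 9.66% and 2.74% of the named genes, so the count is near those shares. The higher one was Chmp4c, a subunit of the ESCRT-III complex that sheds damaged membrane. It had 5.83 in circPan3-/- cells and 4.44 in circPan3+/+ cells, or at least 1.71-fold. Genes of necroptosis and apoptosis had a median of 0.18 over 12 members. As deposited 0 were 2-fold apart, beside 9.66% of the named genes higher and 2.74% lower.

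**Figure D4:**
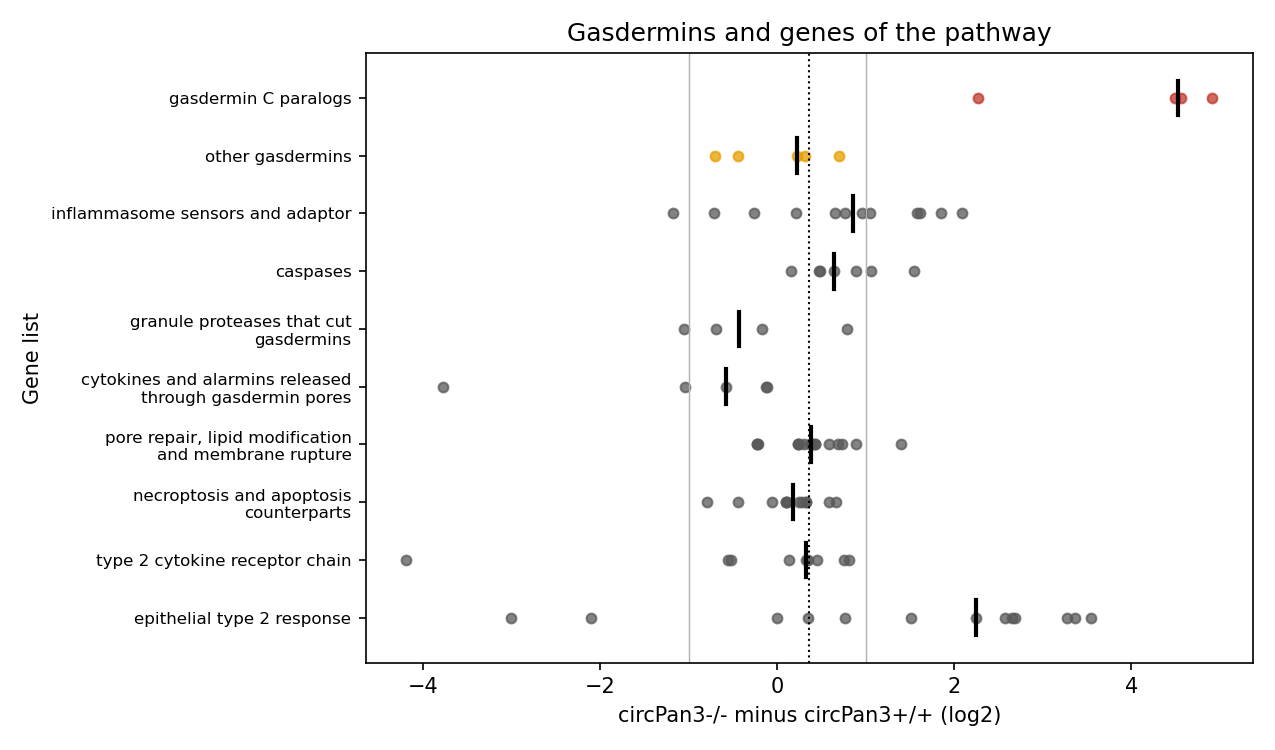
Difference between the arrays (circPan3-/- minus circPan3+/+, log2) of each gasdermin and of the pathway genes past the filter, 1 point per gene, with a bar at each list's median, a dotted line at the median of named genes (0.36) and thin lines at 2-fold. The bar of the gasdermin C paralogs, a family chosen by its differences, is at 4.53, and that of the epithelial type 2 response at 2.25.

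The receptor chain through which IL-4 and IL-13 act had a median of 0.32 over 9 members past the filter. Of these, 1 was at least 2-fold lower and 0 higher as deposited, beside 2.74% and 9.66% of the named genes. The lower one was Il13ra1, a receptor subunit, with 7.78 in circPan3-/- cells and 11.97 in circPan3+/+ cells. The gasdermin C genes and this receptor gene differed in opposite directions, and a link between them was not tested. Il4ra, its partner, had 6.14 and 6.69, and Stat6, the transcription factor of the pathway, 5.88 and 5.56 in circPan3-/- and circPan3+/+ cells. Genes of the epithelial type 2 response had a median of 2.25 over 13 members past the filter, with 8 at least 2-fold higher as deposited, after centring and with bounds, beside 9.66%, 3.85% and 3.68% of the named genes. The antimicrobial ribonuclease gene Ang4 had 10.01 in circPan3-/- cells and 6.64 in circPan3+/+ cells, or 10.3-fold. The goblet cell protease gene Clca1 had 9.93 in circPan3-/- cells and 6.66 in circPan3+/+ cells, or 9.66-fold. The phospholipase gene Pla2g4c, whose circPan3+/+ value of 3.19 was under the limit, was at least 3.21-fold higher. The 2 lower members were Arg1 at -3.01 and Chil3 at -2.10, both known as macrophage genes of type 2 responses. The count was 2 as deposited and after centring, beside 2.74% and 4.96% of the named genes, and 0 with bounds, beside 0.532%. Arg1 had 2.96 in circPan3-/- cells, under the limit, and 5.97 in circPan3+/+ cells, above it. Chil3 had 1.52 and 3.62 in the same order, both under the limits, and passed the filter through its circPan3+/+ value. Of the 8 higher genes 5 also stand in the goblet or Paneth marker lists (Ang4, Clca1, Itln1, Tff3 and Fcgbp). Retnlb, a goblet cell gene of worm infection, did not pass the filter, with 2.71 and 1.72 in circPan3-/- and circPan3+/+ cells, both under the limits.

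Markers of several cell types also differed between the arrays. Beside their counts, the shares of all named genes at least 2-fold higher and lower were 9.66% and 2.74% as deposited. They were 3.85% and 4.96% after centring, and 3.68% and 0.532% with bounds. All 10 goblet cell markers were at least 2-fold higher in circPan3-/- cells as deposited and 8 after centring or with bounds, with a summed linear signal of 6123 there and 1259 in circPan3+/+ cells. Spink4, a peptide gene of goblet cells, had 10.16 and 7.32, and Zg16, a lectin gene of goblet cells, 9.69 and 8.55 in circPan3-/- and circPan3+/+ cells. Of 8 Paneth cell markers 7 were higher and 1 lower by at least 2-fold, with the same counts from bounds and with sums of 11651 and 4479 in circPan3-/- and circPan3+/+ cells, and the lysozyme gene Lyz1 had 11.63 in circPan3-/- and 10.15 in circPan3+/+ cells. Enterocyte markers, of which 0 of 11 were higher and 4 lower both as deposited and with bounds, summed to 2643 in circPan3-/- cells and 4082 in circPan3+/+ cells. Of 10 myeloid markers 9 were at least 2-fold lower as deposited and 3 with bounds, beside 2.74% and 0.532% of the named genes. Their sums were 1617 in circPan3-/- cells and 2195 in circPan3+/+ cells, most of it from Lyz2, which had 10.51 in circPan3-/- cells and 10.55 in circPan3+/+ cells. Of 10 Lgr5 stem cell markers 6 were higher as deposited and 3 with bounds, and 2, Lgr5 and Olfm4, were lower under both. In a bulk sample, more cells of a type and more RNA per cell cannot be told apart, and the part of these cell types in the gasdermin C values was not tested.

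Tuft cell markers belong to the cells that start type 2 responses. All 8 measured members were under the control limits on both arrays, so 0 of 8 were 2-fold apart with bounds. As deposited, 3 of them were at least 2-fold higher and 0 lower, with a median of 0.91, and the counts were the same after centring. The shares of named genes higher were 9.66% as deposited and 3.85% after centring. T and NK cell markers had 0 of 10 higher. As deposited 3 were lower and with bounds 1, beside 2.74% and 0.532% of the named genes. Of 9 enteroendocrine markers 0 were lower. As deposited 6 were higher, after centring 3 and with bounds 3, beside 9.66%, 3.85% and 3.68% of the named genes.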

How the data were processed

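The authors processed the arrays with Affymetrix Power Tools and RMA, per the submitters' processing notes. Neither their versions nor a genome build is stated in the sources used here. The deposited table gives 1 log2 value per transcript cluster and array, from -0.18 to 13.07; the base was taken from that range and from what RMA gives, since the table states no unit. The medians were 2.62 (circPan3-/-) and 2.51 (circPan3+/+).

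Of 72688 rows, 31438 had 1 gene symbol in the platform's annotation, after repeats were joined and symbols updated through Entrez identifiers and synonyms of the RefSeq gene table (GRCm38.p6), 1312 had several and 33206 none; 6732 were controls. The RefSeq table gave gene order only. Named genes leave out predicted models and noncoding RNAs. The control limit, bounds from it to the brighter value, and motifs were chosen after seeing the data. Bounds were taken from the deposited values without centring. A gene was called apart at 2-fold or more. No test across samples is possible.

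The members and lists were chosen with earlier results of these data known. Genes named are the members and their relatives, and up to 3 list members furthest in each direction. A set of caspase, cytokine and receptor genes, the 5 nearest patterns, locus neighbours and the brightest markers are named too. Nlrp9b, Retnlb, Elane, Gzmc, Gzmb, Ctsg and Lyz2 were named after their values were seen. Not every gene given by this rule is named.

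Alternatives were centring, loess (span 0.3), quantile normalization, averaging a symbol's rows, other filters and 1.5-fold. Functions were tested on simulated data. Python 3.11.15, pandas 2.3.3 and statsmodels 0.14.6 were used.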

Additional observations from a re-analysis of the deposited data

How the results depend on the processing

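The differences of the 4 gasdermin C paralogs stayed past 2-fold under centring, loess, quantile normalization and the mean of all rows. They ran from 1.92 for Gsdmc to 4.91 for Gsdmc3, with the values of Gsdmc under both control limits. The mean of all rows changed no member, since each has 1 row. These alternatives reuse the values that chose the family. The bounds fell with the 99th percentile of the negative controls as the limit. They came to at least 2.15-fold for Gsdmc4, 1.29-fold for Gsdmc2 and 1.18-fold for Gsdmc3, with no bound for Gsdmc. The distance of the paralogs from the other gasdermins, 4.30 between medians as deposited, ran from 3.96 to 5.27 over all alternatives for it. Of these, 2 were added after seeing the data: 4.34 without Gsdmc and 4.14 with Pjvk and the pseudogenes counted among the others. Gsdmd passed 2-fold lower at -1.06 after centring, -1.19 after loess and -1.04 after quantile normalization. After centring Gsdma2 stood at -0.13 and Gsdma3 at -0.044, and the medians of the necroptosis and apoptosis genes and of the type 2 receptor chain turned to -0.18 and -0.033. Counts of named genes moved more. The 1416 higher genes became 564 after centring, 505 after loess, 630 after quantile normalization and 4440 at 1.5-fold. The 401 lower genes became 727, 721, 652 and 813 in the same order, and 255 with a filter at the upper quartile. No paired analysis was possible because each genotype has 1 array. For the gasdermins the limit is signal over background: 3 of 9 members were above the control limit on the circPan3-/- array and 1 of 9 on the circPan3+/+ array.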
